A study of Mus musculus with 2 samples.

Results

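The 10 natural killer receptor genes Klra5, Klra6, Klrd1, Klrc1, Klrk1, Klrg1, Klre1, Klrb1c, Cd160 and Ncr1 were read in single immune cells from the inflamed mouse colon. They were chosen by symbol, and all 10 were present among the 32285 genes of both deposited tables. Each had a transcript in retained cells of both libraries, among 17818 genes with a transcript in the library labelled WT and 19657 in the library labelled CKO. The series held 2 libraries, 1 per label, of immune cells found infiltrating the colon in C57BL/6 mice under experimental colitis, an inflammation of the bowel induced in the laboratory. Its title names the loss of RPA1, a subunit of the complex that binds single-stranded DNA, and the homeostasis of T cells. The labels do not expand CKO, and the driver of any deletion, the agent that caused the colitis and the number, age and sex of the mice are absent from the labels used here.

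Natural killer receptors are surface proteins that weigh whether a lymphocyte attacks a neighbouring cell. Inhibitory members, such as Ly49 proteins and the heterodimer of CD94 and NKG2A, bind class I histocompatibility molecules and recruit phosphatases, while activating members, such as NKG2D and NKp46, bind ligands on stressed or infected cells and signal through small adaptor proteins. They are best known on natural killer (NK) cells and related innate lymphoid cells (ILC). In the gut many are also carried by T cells that live in or near the epithelium.

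Transcripts were counted as unique molecular identifiers (UMIs), which mark single captured molecules, near the 3′ ends of genes. The libraries held 2972 and 11311 cell barcodes and 18627050 and 57740083 UMIs, here and below with the library labelled WT given before the library labelled CKO. After filters 2924 and 10942 cells were kept, and 6 barcode sequences occurred in both libraries. Cells were clustered, and clusters were named as classes from marker genes, for lymphoid clusters with limits set after the clusters were seen. No gene whose symbol begins with Klr, nor Cd160 or Ncr1, was used to form or name a class. T-like cells numbered 363 and 593, NK-like cells 26 and 217, and B-like cells 1157 and 5086. Lymphoid clusters high in Cd79a or Lyz2, with 110 and 155 cells, were set aside as mixed. They held 25.0 and 9.11% of the Klra5 UMIs of their libraries, 17.9 and 10.6% of Klra6 and 11.7 and 5.86% of Klrd1. The bearing of this on the ratios in T-like cells was not tested. A library stood apart in its unnamed cells, which were 18.6% of the library labelled WT at a median of 1232 UMIs and 1.36% of the library labelled CKO. Rpa1 was at 35.2 and 53.8 UMIs per 1000000 in T-like cells, so its 3′ counts did not set the libraries apart in the direction of the labels, and counts near a gene's 3′ end need not report a deletion elsewhere in it. With 1 library per label there was no test, and the label cannot be told apart from the animals, the handling of the cells or the library itself. Ranges in parentheses are 95% intervals for counting error alone.

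The genes lie in families. By the GENCODE vM21 annotation of GRCm38, 8 of the 10 are on chromosome 6, and 7 of these lie within 1248470 bases, from the start of Klrb1c to the end of Klra6, in the stretch known as the natural killer gene complex. Klrb1c spans 128778485 to 128789215, Klre1 129577905 to 129585827, Klrd1 129591782 to 129598775, Klrk1 129610323 to 129623864 and Klrc1 129666015 to 129678973. Klra5 spans 129898996 to 129917650 and Klra6 130013033 to 130026954. Klre1 and Klrd1 are on the plus strand, 5955 bases apart, and the other members of the complex are on the minus strand. Klrg1 lies outside it at 122270596 to 122282882 on the minus strand of the same chromosome. Cd160 is on chromosome 3 from 96798763 to 96829351 on the minus strand, and Ncr1 on chromosome 7 from 4337724 to 4345164 on the plus strand. Family copies limit which gene a 3′ count can be credited to. Of the 50-base words in the last 400 bases of the annotated transcripts of Klrc1, 57.5% also occurred in Klrc2 or Klrc3, and 15.4% of those of Klrb1c occurred in other Klrb1 genes or in Gm44511, an overlapping gene on the same strand, so the values of both are uncertain. The share was 3.13% for Klra6, with pseudogenes of its family, and 0 for the other 7.

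Klra5 and Klra6 encode the inhibitory Ly49 receptors Ly49E and Ly49F and are neighbours, 95383 bases apart. Their promoters are shown because the paired genes had unlike values between the libraries. Both sequences are from RefSeq on GRCm38.p6 and run from 250 bases before the start that RefSeq annotates to 50 after it, 5′ to 3′ on the minus strand. The RefSeq start of Klra5 lies inside the span given above from GENCODE, so this window lies within the gene as GENCODE has it. Klra5 covers chr6:129913175-129913474 and Klra6 covers chr6:130026905-130027204. Capitals mark the bases that differ within the stretch that aligned, which is bases 30 to 300 of the Klra5 window and 1 to 271 of the Klra6 window. Bases outside that stretch were not aligned and are in small letters.
Klra5: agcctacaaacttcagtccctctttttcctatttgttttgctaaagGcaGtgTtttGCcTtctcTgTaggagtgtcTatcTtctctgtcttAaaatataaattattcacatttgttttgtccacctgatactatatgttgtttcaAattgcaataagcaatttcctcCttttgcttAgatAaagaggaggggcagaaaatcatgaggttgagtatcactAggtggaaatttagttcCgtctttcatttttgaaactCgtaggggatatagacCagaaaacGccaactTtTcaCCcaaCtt
Klra6: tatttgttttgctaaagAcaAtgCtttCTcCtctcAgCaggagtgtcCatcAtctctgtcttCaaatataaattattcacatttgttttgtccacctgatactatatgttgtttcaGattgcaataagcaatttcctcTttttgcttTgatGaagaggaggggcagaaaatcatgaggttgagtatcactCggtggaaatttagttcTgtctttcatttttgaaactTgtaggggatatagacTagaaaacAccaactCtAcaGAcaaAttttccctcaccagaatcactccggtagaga
The 2 windows aligned over 271 bases without a gap, of which 246 were the same (90.8%) and 25 differed. Of the 10 genes, 8 had a promoter window in the reference used. The core TGTGGT, or ACCACA on the other strand, is that of Runx factors, which regulate lymphocyte genes, and it occurs in 16.8% of 32851 such windows. It was found in windows of Klrc1, Klrk1, Klre1, Klrb1c, Cd160 and Ncr1 and not in those of Klra5 and Klra6. The core TCACAC, or GTGTGA, is that of T-box factors such as T-bet and Eomes, and it occurs in 14.5% of windows. It was found in those of Klre1, Cd160 and Ncr1. These are matches of letters, not binding sites.

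Levels are given as counts per 1000000 UMIs of the class (CPM), and since they are not scaled to a common capture rate between genes, each gene was compared with itself across classes and libraries. B-like cells, which should lack most of these receptors, had at most 1.57 CPM of any of the 10 genes in both libraries. The classes led by natural killer receptors were NK-like cells, a group of innate lymphocytes named here for Gzmc and Ifng, which led it over both libraries pooled (22 and 182 cells), and a group of T-like cells named for Ikzf2 and Cd7 (80 and 187 cells). A smaller group of T-like cells named for Cd8a and Itgae held 38 cells of the library labelled CKO and 1 cell of the library labelled WT. These names of leading genes were set after the data were seen. In the group named for Gzmc and Ifng, Gzmc was at 504 and 619 CPM but Ifng at 327 and 7425 CPM, against 2284 and 2641 CPM of Ifng in NK-like cells, so Ifng describes its cells of the library labelled CKO and not those of the library labelled WT.

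Of the Ly49 genes, Klra5 and Klra6 were read more in subsets of T-like cells than in NK-like cells. Klra5 was highest in the library labelled WT in Ikzf2 Cd7 T cells, at 78.3 CPM (55.1 to 108), followed by 37.3 CPM (10.2 to 95.6) in Gzmc Ifng innate cells, an interval that overlaps. In the library labelled CKO its order was Cd8a Itgae T cells at 407 CPM (321 to 510), Ikzf2 Cd7 T cells at 136 CPM (112 to 163) and Gzmc Ifng innate cells at 72.3 CPM (54.9 to 93.4), with no overlap between them. In NK-like cells Klra5 had 0 and 14 UMIs. Klra6 was highest in Ikzf2 Cd7 T cells in both libraries, at 118 CPM (89.5 to 154) and 46.4 CPM (33.0 to 63.4), and had 1 and 15 UMIs in NK-like cells. Lef1, CD4 and gamma-delta T-like cells had 0 UMIs of Klra5 and of Klra6 in both libraries. The gamma-delta T-like class here is a cluster led by Cd163l1 and Il17a. Cells of other T-like classes with the gamma-delta gene Trdc had Klra5 UMIs, as given below.

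The CD94 group had a wider range. Klrd1 encodes CD94, the common chain that pairs with NKG2 proteins, and in the library labelled WT it stood at 396 CPM in Ikzf2 Cd7 T, 349 in NK-like and 345 in Gzmc Ifng innate cells, with overlapping intervals, ahead of CD8 T-like cells at 155. In the library labelled CKO those levels were 384, 433, 474 and 221 CPM, and Cd8a Itgae T cells had 504. Klrc1 encodes NKG2A, the inhibitory partner of CD94, and was highest in Gzmc Ifng innate cells at 513 and 512 CPM, above CD8 T-like cells at 179 and 199 and NK-like cells at 116 and 173. Klre1 encodes a lectin-like chain that pairs with Klri1 or Klri2 and was highest in NK-like cells, at 311 CPM (229 to 412) and 340 CPM (308 to 375).

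Klrk1 encodes NKG2D, an activating receptor for stress-induced ligands, and was found in many classes. It stood at 728 CPM (575 to 908) in Gzmc Ifng innate and 304 CPM (223 to 404) in NK-like cells of the library labelled WT. The corresponding levels were 460 CPM (414 to 509) and 412 CPM (376 to 451) in the library labelled CKO, with overlap. Gamma-delta T-like cells had 183 and 201 CPM, ILC3-like cells 185 and 207 CPM, and ILC2-like cells 158 and 141 CPM. Cells resembling dendritic cells (DC-like, 30 and 338 cells) had 180 and 221 CPM of Klrk1 and 93.0 and 108 CPM of Klrd1. In these DC-like cells Ncr1 had 0 and 2 UMIs and Klrb1c 0 and 12 UMIs.

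The remaining receptors marked narrower sets of classes. Klrg1, an inhibitory receptor that binds cadherins, was highest in ILC2-like cells, at 180 CPM (146 to 220) and 152 CPM (127 to 181). Klrb1c, which encodes the NK1.1 antigen, was highest in NK-like cells at 336 and 424 CPM, above Gzmc Ifng innate cells at 187 and 194 CPM. Ncr1, which encodes the activating receptor NKp46, stood at 196 and 243 CPM in Gzmc Ifng innate cells and at 110 and 218 CPM in NK-like cells, with overlapping intervals in each library, and at 13.9 CPM or less in every other class plotted. Cd160, a receptor for the herpesvirus entry mediator and class I molecules, was highest in Ikzf2 Cd7 T cells at 148 and 144 CPM, whose intervals overlap those of Gzmc Ifng innate cells at 103 and 122 CPM.

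**Figure D1:**
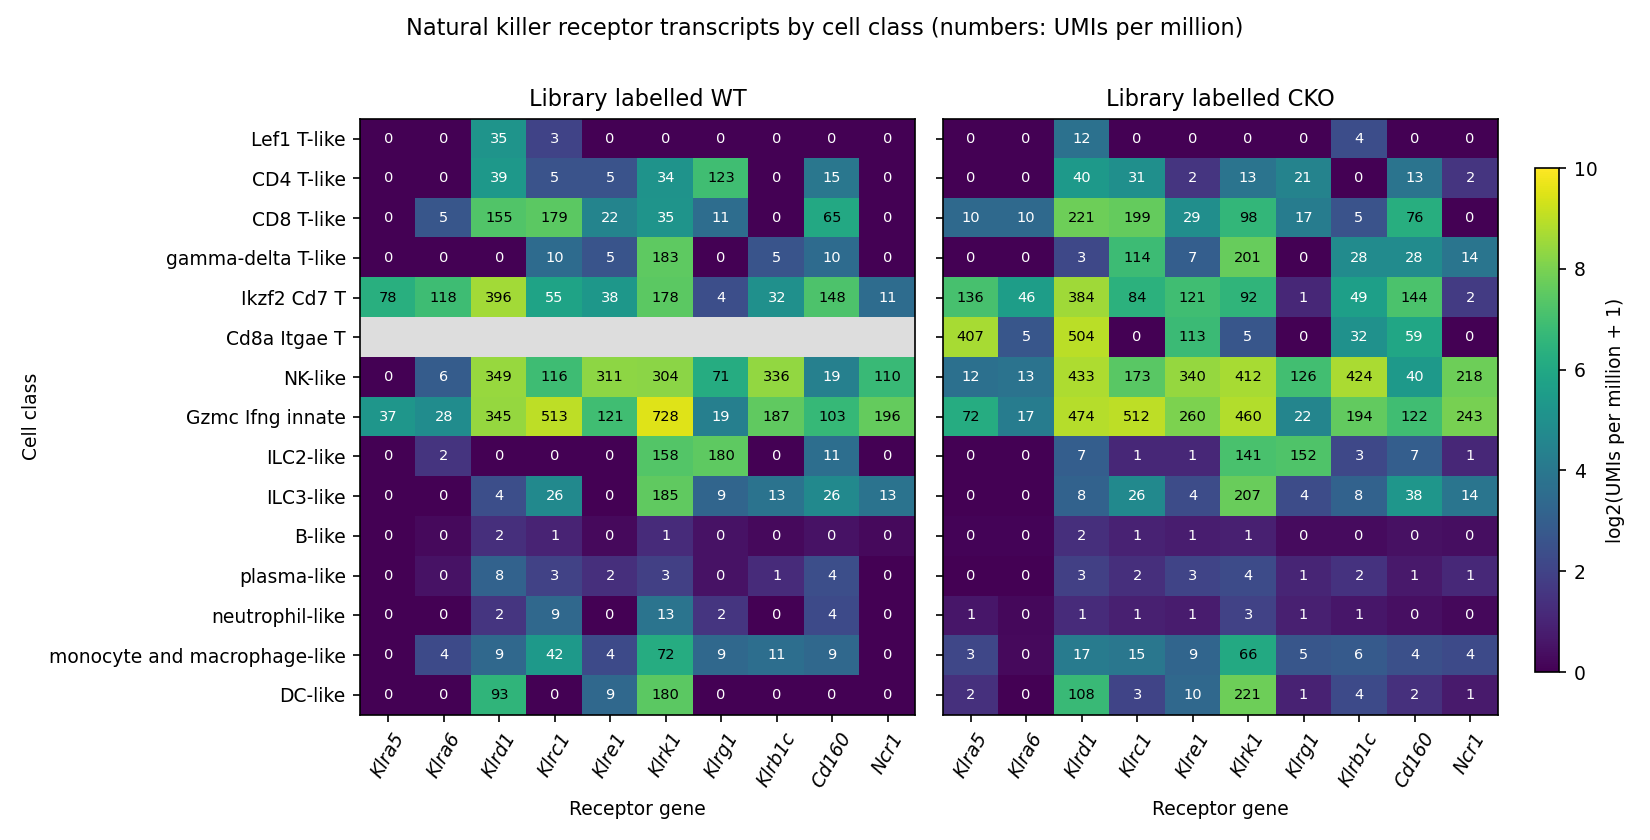
Heat map of the 10 receptor genes (columns) in 15 cell classes (y axis) for each library; the numbers are CPM of the class, the colour is log2(CPM + 1), and the grey row marks a class with 1 cell. Read down a column, Ncr1 and Klrb1c are high in NK-like and Gzmc Ifng innate cells, Klrg1 in ILC2-like cells and Klra5 in Ikzf2 Cd7 and Cd8a Itgae T cells.

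Between the libraries, T-like cells differed most in the Ly49 gene Klra5, in Klre1 and in Klrb1c, which were higher in the library labelled CKO, while the neighbouring Ly49 gene Klra6 was lower. A gene was read in a class at 20 or more UMIs over both libraries, and 9 of the 10 were read in T-like cells. Of these, Klra5, Klre1, Klrb1c and Klrc1 were at least 1.5-fold higher, where 13.4% of all 8679 genes read were, and Klra6 and Klrg1 at least 1.5-fold lower, where 8.0% were. The median log2 ratio (CKO label over WT label) of the 9 was 0.48 against 0.07 over all genes read.

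Klra5 had 37 UMIs at 19.4 CPM (13.7 to 26.8) and 194 UMIs at 77.9 CPM (67.3 to 89.7) in T-like cells. The intervals do not overlap, and the ratio was 4.01-fold, with an interval of 1.49 to 2.55 on the log2 scale. Klra5 was found in 9 of 363 cells (2.48%) and 60 of 593 cells (10.1%). After thinning every cell to 1000 UMIs, with 5 and 9 shallower cells left out, the shares were 1.68% (0.617 to 3.61) and 5.65% (3.92 to 7.84), while B-like cells had 0 of 1118 and 0 of 4952, which allows up to 0.329% and 0.0745%. Median depth was 4638 and 3812 UMIs in T-like cells and 3978 and 2920.5 in B-like cells. The Cd8a Itgae T cells held 76 of the 194 UMIs. Without them Klra5 was at 51.2 CPM in the library labelled CKO and the log2 ratio was 1.39 (0.85 to 1.97), where 12.5% of genes read were at least 1.5-fold higher and 7.91% lower. With them left out and each other subset given the same weight in both libraries, the log2 ratio of Klra5 was 0.85.

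Klra6 was at 30.5 CPM (23.1 to 39.4) and 17.7 CPM (12.8 to 23.7), a log2 ratio of -0.79 (-1.38 to -0.20). The 2 Ly49 neighbours thus had ratios on opposite sides of 0 in the pooled class, whose makeup differed between the libraries. Klre1 had 28 and 138 UMIs at 14.7 CPM (9.77 to 21.3) and 55.4 CPM (46.6 to 65.5), a log2 ratio of 1.91 (1.32 to 2.56). Klrb1c had 17 and 58 UMIs at 8.93 CPM (5.20 to 14.3) and 23.3 CPM (17.7 to 30.1), a log2 ratio of 1.38 (0.58 to 2.26). Both genes were higher in the library labelled CKO without overlap of the intervals. Klrc1 was at 50.9 and 80.7 CPM, a log2 ratio of 0.66 (0.31 to 1.03), and after thinning this order was lost, with 28 and 44 UMIs and a ratio of -0.05. Klrd1, the chain that NKG2A needs at the surface, was at 153 and 214 CPM, a log2 ratio of 0.48 (0.27 to 0.69), short of 1.5-fold.

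Klrk1 was at 73.5 CPM in T-like cells of both libraries, with a log2 ratio of -0.00 (-0.33 to 0.33). The pooled value hides unlike subsets, which are described below. Cd160 was at 52.0 and 71.5 CPM, a log2 ratio of 0.46 (0.10 to 0.83). Klrg1 was at 16.3 and 7.63 CPM, a log2 ratio of -1.09 (-2.00 to -0.22), but 14 of its 31 UMIs in the library labelled WT, 45.2%, came from 1 CD4 T-like cell. Ncr1 had 5 and 7 UMIs and was not read.

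**Figure D2:**
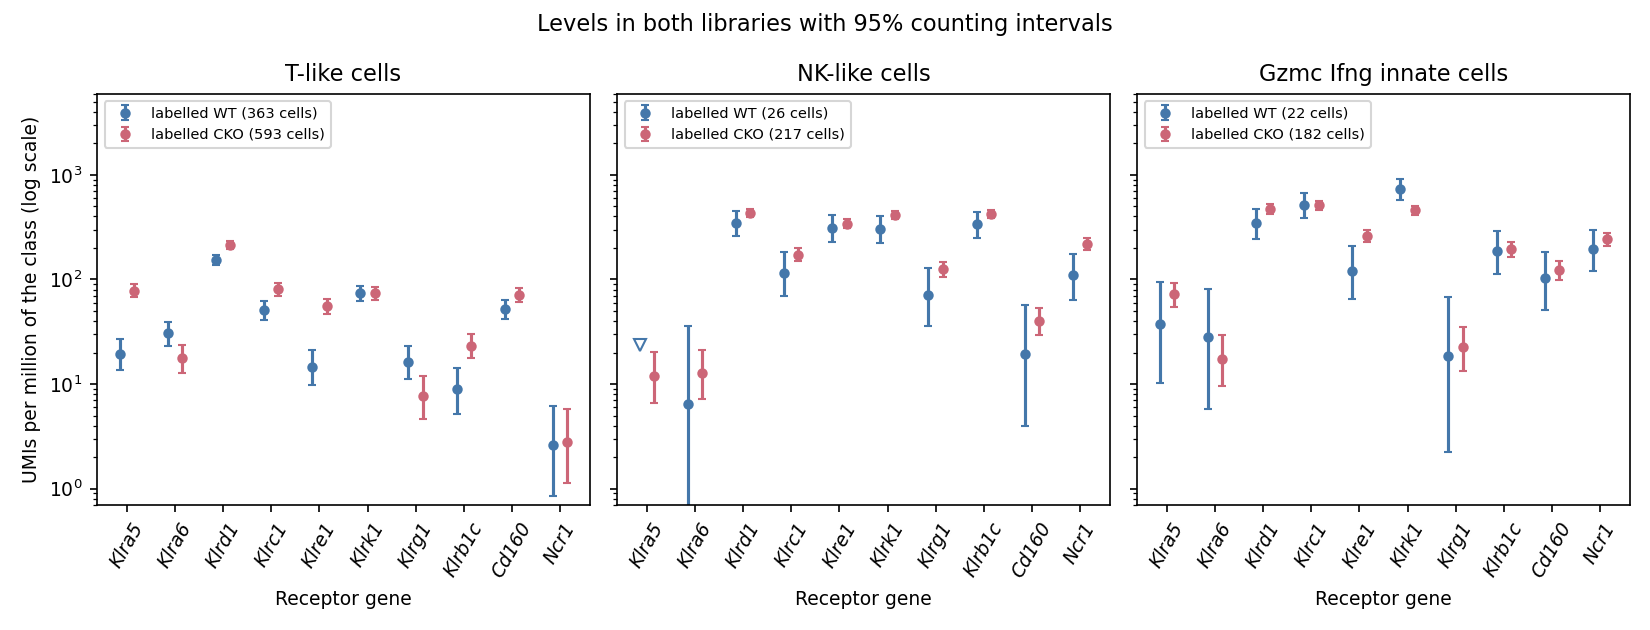
Level of each receptor gene in CPM of the class (log y axis) in T-like, NK-like and Gzmc Ifng innate cells, blue for the library labelled WT and red for the library labelled CKO; bars are exact 95% counting intervals and the open triangle is the upper limit of a count of 0. In T-like cells Klra5 stands at 19.4 and 77.9 and Klre1 at 14.7 and 55.4, without overlap.

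The makeup of T-like cells differed between the libraries in the same cells. Lef1 T-like cells, which carry genes of naive T cells and few receptors, made up 36.6 and 13.8% of T-like cells. Ikzf2 Cd7 T cells were 22.0 and 31.5%, Cd8a Itgae T cells 0.275 and 6.41%, CD4 T-like cells 11.6 and 23.3%, CD8 T-like cells 19.8 and 14.7% and gamma-delta T-like cells 9.64 and 10.3%. Summed NK markers in T-like cells, none of them a member, were at 3251 and 6483 CPM, with 13 and 12 of 13 markers found, and gamma-delta T cell markers at 278 and 717 CPM. T cell markers were at 4337 and 4230 CPM with 11 of 11 found in both. Plasma cell markers were at 5396 and 1472 CPM. Over all named T, NK and ILC classes pooled, whose makeup also differed, 7 of the 10 genes were at least 1.5-fold higher, where 11.3% of 9969 genes were, and 1 lower, where 8.08% were. T-like subsets were also weighted alike, without the Cd8a Itgae T cells, which were too few in the library labelled WT. Klre1 then had a log2 ratio of 1.36, Klrb1c 0.95, Klrc1 0.62, Klra6 -1.22 and Klrg1 -1.78, while Klrd1 came to 0.04, Cd160 to 0.06 and Klrk1 to -0.30.

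Within Ikzf2 Cd7 T cells 8 genes were read, with Klra5, Klre1, Klrc1 and Klrb1c at least 1.5-fold higher, where 13.5% of 5970 genes were, and Klra6 and Klrk1 at least 1.5-fold lower, where 10.6% were. Klre1 had 18 and 102 UMIs at 38.1 CPM (22.6 to 60.2) and 121 CPM (98.9 to 147), a log2 ratio of 1.67 (0.94 to 2.48). Klra5 was at 78.3 and 136 CPM, a log2 ratio of 0.79 (0.25 to 1.37), and Klra6 at 118 and 46.4 CPM, a ratio of -1.35 (-1.98 to -0.74). The ratios of the 2 Ly49 genes also had opposite signs in this subset. Klrk1 was at 178 CPM (142 to 220) and 91.6 CPM (72.3 to 114), a log2 ratio of -0.96 (-1.42 to -0.49). Klrd1 at 396 and 384 CPM and Cd160 at 148 and 144 CPM had ratios of -0.04 each. Klrc1 was at 55.0 and 84.5 CPM and Klrb1c at 31.7 and 48.8 CPM, both with a log2 ratio of 0.62. That direction was not shared by all the kinds of cell described below.

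This subset itself held unlike cells. Trac, the constant gene of the alpha chain of the T cell receptor, was at 389 and 108 CPM in it, and Trdc, the constant gene of the delta chain, at 112 and 437 CPM. Cells with a Trac UMI and no Trdc UMI numbered 53 and 13, and cells with Trdc and no Trac 8 and 92. In the cells with Trac alone Klra6 had 49 and 4 UMIs at 146 and 58.2 CPM, a log2 ratio of -1.33 (-3.26 to 0.12), and Klra5 had 26 and 6 UMIs at 77.4 and 87.2 CPM, a ratio of 0.17. In the cells with Trdc alone Klra5 had 6 and 67 UMIs at 109 and 158 CPM, a ratio of 0.53 (-0.66 to 2.03). Klra6 had 1 and 11 UMIs there, at 18.2 and 25.9 CPM. For Klra5, cells with neither gene had 0 and 19 UMIs. Cells with both had 5 and 22 Klra5 UMIs, a ratio of -0.67 (-2.11 to 1.09). Cells with neither gene had 6 and 9 UMIs of Klra6, a ratio of -0.84 (-2.50 to 0.93), and cells with both had 0 and 15 UMIs. Within no kind of cell was the Klra6 count large enough to place its ratio on a side of 0, and the part of the makeup in the pooled ratio was not tested. Klre1 was at 47.6 and 160 CPM in cells with Trac alone, a log2 ratio of 1.75 (0.49 to 2.94), and at 36.3 and 94.2 CPM, from 2 and 40 UMIs, in cells with Trdc alone. It had 0 and 18 UMIs in cells with neither gene and 0 and 33 UMIs in cells with both. Klrk1 was at 143 and 72.7 CPM in cells with Trac alone, a ratio of -0.98 (-2.66 to 0.35). In cells with Trdc alone it was at 218 and 122 CPM, a ratio of -0.83 (-1.76 to 0.21). Cells with neither gene had 9 and 9 Klrk1 UMIs, a ratio of -1.43 (-2.94 to 0.08). Those 3 intervals include 0. In the 6 and 40 cells with both genes Klrk1 had 15 and 11 UMIs at 508 and 53.2 CPM. The ratio there was -3.25 (-4.52 to -2.03), which excludes 0. Klrc1 was higher only in cells with neither gene, from 1 and 27 UMIs, a ratio of 3.33 (0.73 to 8.68). Its ratio was -0.71 (-6.18 to 2.19) with Trac alone, -0.95 (-1.97 to 0.22) with Trdc alone and -4.03 (-6.61 to -1.90) with both. Klrb1c had 11 and 0 UMIs with Trac alone, 3 and 18 with Trdc alone, 0 and 13 with neither and 1 and 10 with both.

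The 38 Cd8a Itgae T cells of the library labelled CKO were the highest in Klra5, with a UMI in 22 cells (57.9%). After thinning the share was 36.8% (21.8 to 54.0). They had 504 CPM of Klrd1, 113 of Klre1, 59.0 of Cd160 and 32.2 of Klrb1c, and 0 UMIs of Klrc1, Klrg1 and Ncr1. Their T cell genes Cd3e and Cd8a were at 665 and 697 CPM, Cd8b1, the beta chain of CD8, was at 0, and Trdc and Trac were at 472 and 145 CPM. The adaptor genes Fcer1g and Tyrobp, through which activating receptors signal, were at 1619 and 1565 CPM, and Eomes, a regulator of NK cells, was at 0. The single such cell of the library labelled WT had 17 Klrd1 UMIs and 0 of Klra5.

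CD8 T-like cells differed chiefly in Klrk1, which had 13 and 40 UMIs at 35.3 CPM (18.8 to 60.3) and 98.2 CPM (70.2 to 134). Its log2 ratio of 1.48 (0.55 to 2.50) made it the only 1 of 5 genes read at 1.5-fold higher, where 17.2% of 4244 genes were, with 0 lower, where 11.8% were. Klrd1 was at 155 and 221 CPM, a log2 ratio of 0.51, and Klrc1 at 179 and 199 CPM, a ratio of 0.15. This class includes a cluster led by antibody genes such as Igha, and the part of that cluster in the Klrk1 value was not tested. In gamma-delta T-like cells, where 2 of the genes were read and 13.9% of 3089 genes were at least 1.5-fold higher, Klrc1 had 2 and 33 UMIs at 10.2 and 114 CPM, a log2 ratio of 3.49 (1.52 to 6.60) from 11 cells of the library labelled CKO. In CD4 T-like cells Klrg1 had 25 and 11 UMIs at 123 and 21.0 CPM, where 12.4% of genes read were lower, and 56.0% of the UMIs of the library labelled WT came from 1 cell. Lef1 T-like cells had 23 and 3 Klrd1 UMIs and at most 2 UMIs of any other member.

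In NK-like cells the values of the 8 genes read were higher in the library labelled CKO, most by less than their counting error, and those of Klrc1, Klrk1, Klre1 and Cd160 turned below 0 under another way of processing. Cd160, Ncr1 and Klrg1 were at least 1.5-fold higher, where 20.8% of 5417 genes were, and 0 were that much lower, where 13.9% were. The 26 cells of the library labelled WT limit all of these values. Ncr1 had 17 and 255 UMIs at 110 CPM (64.1 to 176) and 218 CPM (192 to 247), a log2 ratio of 0.99 (0.28 to 1.79), and was found in 38.5 and 59.4% of cells. Klrg1 was at 71.2 CPM (35.5 to 127) and 126 CPM (106 to 148), with overlapping intervals and a log2 ratio of 0.82 (-0.06 to 1.86). Cd160 had 3 and 47 UMIs, a log2 ratio of 1.05 (-0.58 to 3.38), so no direction can be given.

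The other NK-like values lay within 1.5-fold. Klrk1 was at 304 and 412 CPM, a log2 ratio of 0.44 (0.00 to 0.90), Klrb1c at 336 and 424 CPM, a ratio of 0.33, and Klrd1 at 349 and 433 CPM, a ratio of 0.31 (-0.10 to 0.74). Klrc1 was at 116 and 173 CPM, a ratio of 0.57, and Klre1 at 311 and 340 CPM, a ratio of 0.13. Klre1, 3.77-fold higher in T-like cells, was therefore close between the libraries in the class where it was highest. The median of the 8 was 0.51 against 0.02 over all genes. NK-like cells carried all 13 NK markers in both libraries, at 29255 and 25515 CPM summed, with Eomes at 433 and 263 CPM, and had 0 and 3 UMIs of Cd3e and 0 of Cd8a and Cd8b1.

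Gzmc Ifng innate cells differed in Klrk1 and Klre1. Klrk1 was at 728 CPM (575 to 908) and 460 CPM (414 to 509), without overlap, a log2 ratio of -0.66 (-1.02 to -0.29). Klre1 had 13 and 209 UMIs at 121 CPM (64.6 to 207) and 260 CPM (226 to 298), a ratio of 1.10 (0.30 to 2.04), though 46.2% of the UMIs in the library labelled WT came from 1 cell. Klra5 had 4 and 58 UMIs at 37.3 and 72.3 CPM, a ratio of 0.95, with 25.9% of the larger count in 1 cell. Of 9 genes read these were the 2 at least 1.5-fold higher, where 18.0% of 4739 genes were, and Klrk1 was the 1 lower, where 19.4% were. Klrc1, at 513 and 512 CPM, had a ratio of -0.00, Klrb1c was at 187 and 194 CPM, and Klrd1 at 345 and 474 CPM, a ratio of 0.46. T cell genes were present here and lower in the library labelled CKO, with Cd3g at 457 and 167 CPM and Cd3e at 103 and 27.4 CPM. In the 19 and 168 cells without a Cd3e UMI, Klrk1 was at 775 and 468 CPM, a log2 ratio of -0.73 (-1.11 to -0.32), and Klre1 at 47.7 and 258 CPM, a ratio of 2.43 (1.05 to 4.32) from 4 and 189 UMIs. Klra5 had 1 and 28 UMIs in those cells, at 11.9 and 38.2 CPM, a ratio of 1.68 (-0.92 to 7.03). The 3 and 14 cells with a Cd3e UMI held 3 and 30 Klra5 UMIs, at 129 and 434 CPM.

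**Figure D3:**
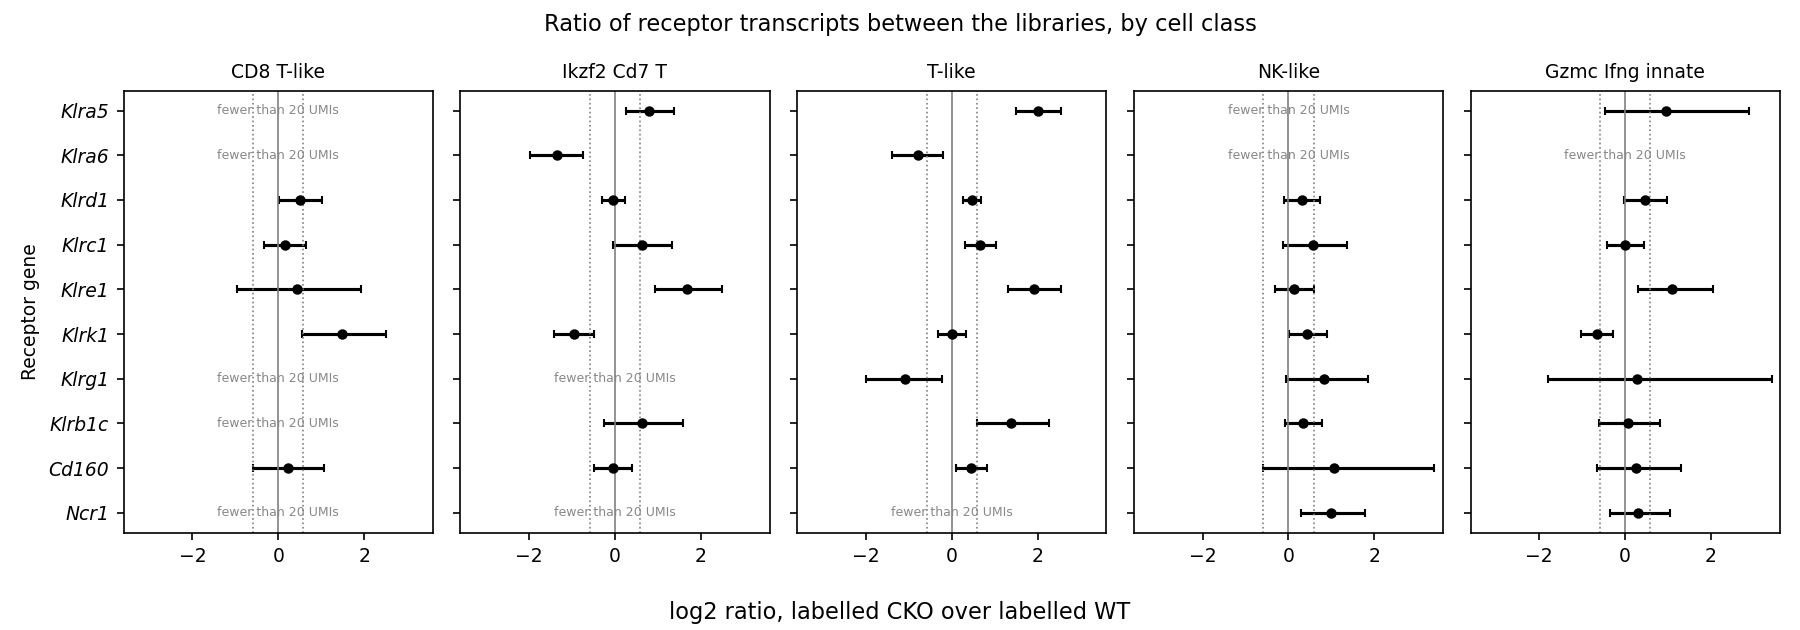
Log2 ratio of each receptor gene, library labelled CKO over library labelled WT (x axis), in 5 cell classes; points are ratios, bars exact 95% counting intervals, and dotted lines mark 1.5-fold. Klrk1 lies at 1.48 in CD8 T-like cells, -0.96 in Ikzf2 Cd7 T cells and -0.66 in Gzmc Ifng innate cells, and Klra5 and Klra6 lie on opposite sides of 0 in T-like cells.

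Combinations of the receptors were seen in NK-like, Gzmc Ifng innate and Ikzf2 Cd7 T cells. At 1000 UMIs per cell, the mean number of the 10 genes with a UMI was 1.71 and 1.95 in Gzmc Ifng innate cells, 1.19 and 1.84 in NK-like cells, 0.897 and 0.808 in Ikzf2 Cd7 T cells and 0.947 in Cd8a Itgae T cells. It was 0.479 and 0.575 in CD8 T-like cells, 0.143 and 0.283 in gamma-delta T-like cells, 0.327 and 0.210 in ILC2-like cells, 0.229 and 0.314 in ILC3-like cells, 0.0952 and 0.154 in CD4 T-like cells and 0.00763 and 0.0370 in Lef1 T-like cells, against 0.00626 and 0.00606 in B-like cells. In NK-like cells, 26 and 213 after thinning, 7.69% (0.946 to 25.1) and 24.9% (19.2 to 31.2) had 3 or more of the genes. None were found in 30.8% (14.3 to 51.8) and 10.8% (6.97 to 15.8) of them. The intervals of both shares overlap between the libraries. In all T-like cells the shares with 3 or more were 0.559 and 3.08%. Ikzf2 Cd7 T cells had none in 42.3 and 45.1% and 3 or more in 2.56 and 7.69%, also with overlapping intervals.

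**Figure D4:**
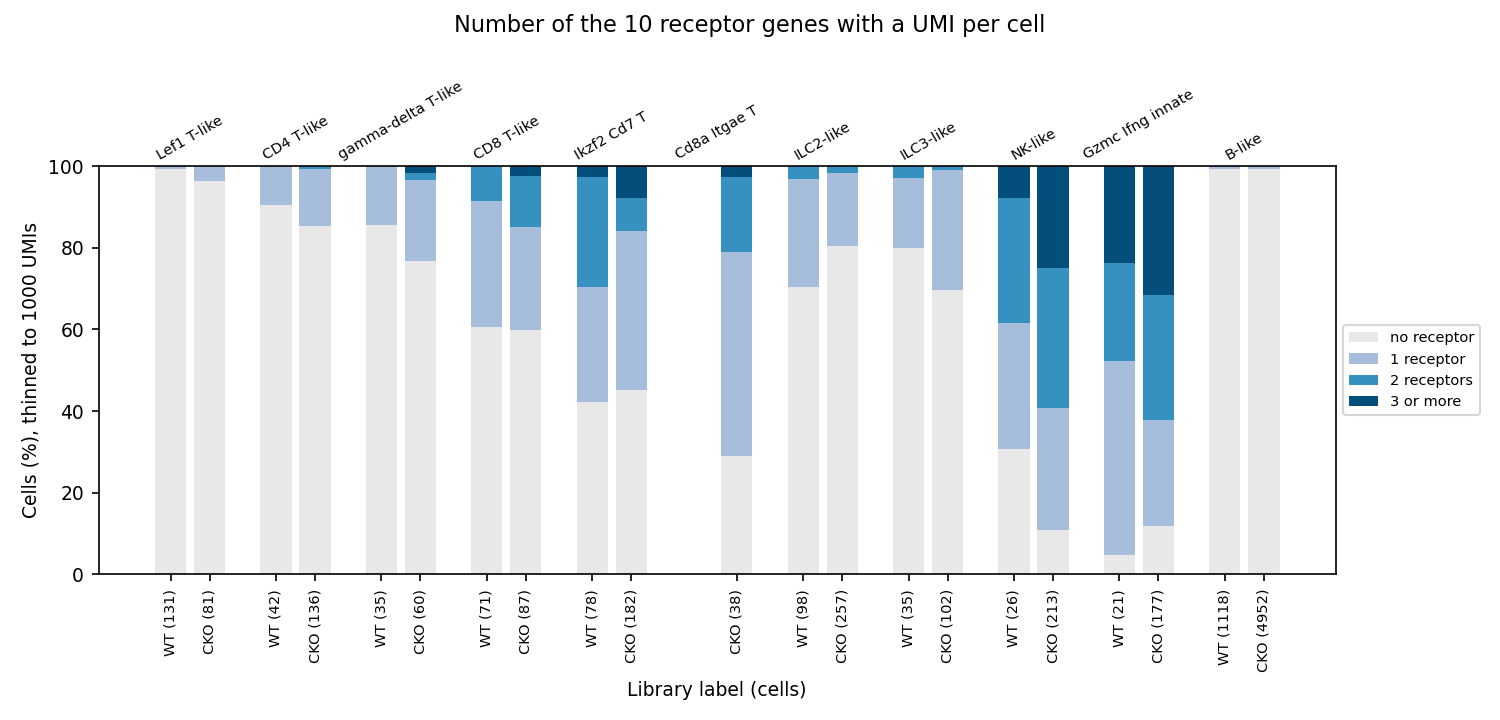
Share of cells (y axis, percent) by how many of the 10 receptor genes had a UMI after thinning to 1000 UMIs, for each class and library, with the number of cells below each bar. The darkest part, 3 or more genes, is 7.69 and 24.9% in NK-like cells, with overlapping intervals from 26 and 213 cells. B-like cells are nearly all without a receptor UMI.

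Partner chains were compared within the same cells, in the library labelled CKO, where cells were more numerous. CD94 and NKG2A form a receptor together. In CD8 T-like cells Klrd1 was found in 46.2% of 13 cells with a Klrc1 UMI (19.2 to 74.9). It was found in 14.9% of 74 cells without (7.66 to 25.0), and the intervals overlap. In NK-like cells the shares were 33.3% of 36 and 32.8% of 177 cells, which lie close together. In Gzmc Ifng innate cells, where Klrc1 was highest, they were 32.3% of 65 and 38.4% of 112 cells, in the other order with overlapping intervals. Ikzf2 Cd7 T cells had 33.3% of 9 and 28.9% of 173 cells, also with overlap. For Klre1 in Gzmc Ifng innate cells Klrd1 was found in 48.8% of 41 cells with it and 32.4% of 136 cells without, with overlapping intervals. For the 2 Ly49 genes, 2 of 18 Ikzf2 Cd7 T cells with Klra5 also had Klra6, or 11.1% (1.38 to 34.7), against 6 of 164 without Klra5, or 3.66% (1.35 to 7.79), with overlapping intervals.

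The adaptors and partner chains of the receptors were read in the same classes. Tyrobp, which encodes DAP12, the adaptor of activating Ly49 receptors and of a short form of NKG2D, was at 68.3 and 253 CPM in T-like cells, a log2 ratio of 1.89 (1.62 to 2.18). Fcer1g, the adaptor of NKp46, was at 147 and 381 CPM, a ratio of 1.37 (1.18 to 1.57), and Lat2, an adaptor of early signalling, at 6.83 and 30.9 CPM, a ratio of 2.18 (1.32 to 3.15). Hcst, which encodes DAP10, the main adaptor of NKG2D, was at 349 and 460 CPM, a ratio of 0.40, and Cd247, the zeta chain of the T cell receptor, at 114 and 110 CPM, a ratio of -0.06. Of 22 signalling genes read in T-like cells, 8 were at least 1.5-fold higher and 0 lower, against 13.4 and 8.0% of all genes read, with a median of 0.43 against 0.07. The Cd8a Itgae T cells held 292 of the 631 Tyrobp UMIs of the library labelled CKO. Without them Tyrobp was at 61.8 and 147 CPM, a ratio of 1.25 (0.94 to 1.57), Fcer1g had a ratio of 1.01, Lat2 of 1.69, and 6 signalling genes were at least 1.5-fold higher.

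In NK-like cells the ratios of several adaptors lay below 0. Tyrobp was at 2575 and 1877 CPM, a log2 ratio of -0.46 (-0.61 to -0.30), Fcer1g at 1630 and 1234 CPM, a ratio of -0.40, Hcst at 427 and 404 CPM, a ratio of -0.08, and Cd247 at 272 and 159 CPM, a ratio of -0.77 (-1.26 to -0.25). Klri2, which pairs with Klre1, was at 291 and 198 CPM, a ratio of -0.56 (-1.02 to -0.06), and Klri1 had 2 and 1 UMIs. Sh2d1b1, an adaptor of the SLAM family of receptors, had 1 and 39 UMIs, a ratio of 2.37 (-0.19 to 7.71). Of 21 signalling genes read 4 were at least 1.5-fold higher and 4 lower, near the 20.8 and 13.9% of all genes read, and the median was -0.09.

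Ligands of the receptors were read in the same classes. H2-T23 encodes Qa-1, the ligand of CD94 and NKG2A, and was at 361 and 325 CPM in T-like cells, a log2 ratio of -0.15, at 369 and 257 CPM in NK-like cells, a ratio of -0.52 (-0.93 to -0.09), and at 344 and 325 CPM in B-like cells. Cdh1, which encodes E-cadherin, a ligand of Klrg1 and of the integrin that contains Itgae, was at 12.6 and 26.1 CPM in T-like cells, a ratio of 1.05 (0.36 to 1.79), from 24 and 65 UMIs. Epithelial-like cells, of which there were 9 and 39, had 552 and 224 CPM of it. Cfp, the plasma protein properdin and a ligand of NKp46, was found in DC-like cells at 143 and 176 CPM, and Tnfrsf14, the herpesvirus entry mediator bound by Cd160, was at 10 CPM or less throughout. Cd48, the ligand of the receptor 2B4, was at 36.2 and 72.7 CPM in T-like cells, and Pvr, a ligand of DNAM-1 and TIGIT, at 31.5 and 16.5 CPM. Of 9 ligand genes read there, 2 were at least 1.5-fold higher and 1 lower, close to the 13.4 and 8.0% of all genes read, and their median of 0.08 was close to the 0.07 of all genes. Of 6 in NK-like cells 0 were past 1.5-fold in either direction, with a median of -0.20.

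Other receptors of the families were read from a list of 30, of which 29 were matched. In T-like cells 11 of 16 read were at least 1.5-fold higher and 1 lower, against 13.4 and 8.0% of all genes read, with a median of 0.83. Klra4, an activating Ly49 gene, had 0 and 20 UMIs, a log2 ratio of at least 2.35 against a floor of 3 counts in the class, and Fcgr3, an antibody receptor, had 3 and 19 UMIs, of which 3 and 11 lay outside the Cd8a Itgae T cells. Klrb1b, a relative of Klrb1c, was at 11.6 and 28.9 CPM, a ratio of 1.32, and Klrb1a, another relative, at 6.83 and 18.9 CPM, a ratio of 1.47 that came to 0.77 (-0.23 to 1.85) without the Cd8a Itgae T cells. Cd7, a receptor of T and NK cells that also names a T subset, was at 227 and 551 CPM, a ratio of 1.28. Crtam, a receptor of activated lymphocytes, had 21 and 16 UMIs, a ratio of -0.78 (-1.81 to 0.23). In NK-like cells the median was 0.06, with 7 of 19 at least 1.5-fold higher and 2 lower, against 20.8 and 13.9% of all genes read. There Cd7 was at 38.8 and 173 CPM, a ratio of 2.16 (1.01 to 3.62), and Klrb1b at 155 and 263 CPM, a ratio of 0.76 (0.16 to 1.42). The Ly49 genes Klra8 and Klra1 were lower, at 459 and 263 CPM, a ratio of -0.80 (-1.18 to -0.41), and at 90.6 and 55.7 CPM, a ratio of -0.70.

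Effector genes were read in the same classes, and differences between classes were not tested. In T-like cells 9 of 17 cytotoxic effector genes read were at least 1.5-fold higher and 1 lower, against 13.4 and 8.0% of all genes read, with a median of 0.70. The cytokine gene Ifng was at 50.4 and 736 CPM, a log2 ratio of 3.87 (3.57 to 4.18), the granzyme gene Gzma at 736 and 2328 CPM, a ratio of 1.66 that came to 0.55 (0.44 to 0.66) without the Cd8a Itgae T cells, and the granzyme gene Gzmc at 22.1 and 10.8 CPM, a ratio of -1.02. In Gzmc Ifng innate cells 5 of 16 were at least 1.5-fold higher and 0 lower, against 18.0 and 19.4% of all genes read, and Ifng had a ratio of 4.51 (4.03 to 5.03). In NK-like cells 0 of 15 were at least 1.5-fold higher and 6 lower, against 20.8 and 13.9% of all genes read, with a median of -0.16. The chemokine gene Ccl4 was at 2154 and 1011 CPM, a ratio of -1.09, the granzyme gene Gzmb at 3002 and 1707 CPM, a ratio of -0.81 (-0.96 to -0.67), and the chemokine gene Ccl3 at 1074 and 638 CPM, a ratio of -0.75.

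Regulators of NK cells and their kin were read last. In T-like cells 5 of 20 were at least 1.5-fold higher, against 13.4% of all genes read, with a median of 0.38. The receptor genes for interleukin-18, Il18rap and Il18r1, were at 38.3 and 120 CPM, a log2 ratio of 1.64, and at 68.8 and 165 CPM, a ratio of 1.26. Il12rb1, a receptor chain for interleukin-12, was at 10.5 and 25.7 CPM, a ratio of 1.29, and Tbx21, which encodes T-bet, at 17.9 and 32.9 CPM, a ratio of 0.88. In NK-like cells the median was -0.03, with 3 of 18 at least 1.5-fold higher and 2 lower, against 20.8 and 13.9% of all genes read. Eomes had a ratio of -0.72 (-1.11 to -0.32) and Il2rg, the common cytokine receptor chain, was at 408 and 266 CPM, a ratio of -0.62. Tcf7, a regulator of early lymphocytes, was at 45.3 and 91.7 CPM, a ratio of 1.02.

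The genes most like each receptor in pattern were found from Pearson's r of log2(CPM + 10) over 32 sums of a class and library with at least 20 cells, which share libraries and depth. Klrd1 and Klre1 were both close to Tbx21, at r of 0.90 and 0.91, and Klre1 was also close to Klrb1c at 0.91. Klrb1c and Ncr1 were close to Klra3, an inhibitory Ly49 gene, at 0.93 and 0.89. Klrc1 was closest to Klrc2, which encodes an activating NKG2 chain and shares 3′ sequence with it, at 0.91. Klrk1 was closest to Serpinb9, a granzyme inhibitor, at 0.86. Klrg1 was near Gata3, the regulator of ILC2 and Th2 cells, at 0.79. Cd160 was closest to Ctsw, a protease of cytotoxic cells, at 0.90, and Klra5 to Cd200r4, an activating receptor, at 0.89. Klra6 was closest to Cd160 at 0.81, while Klra5 and Klra6 had an r of 0.72 with each other. These are descriptions of where transcripts lay and were not tested.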

How the data were processed

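The deposited tables hold whole-number UMI counts per gene and barcode with no normalization, per the file headers. Cell Ranger 6.0.1 is named in these headers, whereas mm10, Cell Ranger 5.0.0 and Seurat 3.2.3 stand in the submitters' processing notes. Barcodes with fewer than 200 genes (11 and 36) or over 20% mitochondrial UMIs (42 and 130) were left out. Scrublet marked 1 and 213 doublets, below the expected 2.34 and 8.92%, so doublets may remain. Cells were clustered together by Leiden in scanpy 1.11.5 (python 3.11.15) without batch correction, at resolution 1 with 15 neighbours, on 2000 variable genes and 30 components, then 1500 and 20 within lymphoid cells. Clusters of all cells were named from the marker list with the highest mean log2 score, which had to be at least 1. Lymphoid clusters were then named from CPM limits on single marker genes, and these limits were set after the clusters were seen. Of the clusters in CD8 T-like cells, 1 led by interferon genes had 0 markers of its own among its top 10 genes.

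CPM came from UMIs summed per class and library. Intervals were exact: Poisson for a sum, binomial for a share, conditional for a ratio. Steps were tested on counts simulated at the depth of several classes, with 2-fold changes set in some genes. Among genes with no change set, 8.86% passed 1.5-fold in either direction in T-like cells. The share was 15.5% in Ikzf2 Cd7 T, 28.9% in NK-like and 31.5% in Gzmc Ifng innate cells. Single genes past 1.5-fold in those classes can thus arise from counting error. Genes were named by rule: all 10 members, the largest and smallest ratios past 1.5-fold in 5 pathway lists, and known partners and ligands; partly listed here. The members and lists were chosen with earlier results of these data known. Other settings are given with the closing observations. A gene of the regulator list is not reported here.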

Additional observations from a re-analysis of the deposited data

Results flagged for a closer look

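Klrk1, which encodes the activating receptor NKG2D, had ratios of opposite sign in different lymphocytes. Its log2 ratio, library labelled CKO over library labelled WT, was 1.48 (0.55 to 2.50) in CD8 T-like cells, from 13 and 40 UMIs, and -0.66 (-1.02 to -0.29) in Gzmc Ifng innate cells, from 78 and 369 UMIs. In Ikzf2 Cd7 T cells it was -0.96 (-1.42 to -0.49), from 84 and 77 UMIs, against the same 1.48 in CD8 T-like cells. The difference between the classes was not tested, since each label has 1 library.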

How the results depend on the processing

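No paired analysis was possible because each label has 1 library. Of the counts and medians of members in T-like and NK-like cells, each recomputed under every alternative that applied, 68 values stayed close to those reported and 10 moved. A count within 1.5-fold of the reported one was taken as close. The 2-fold setting cannot change a median or a ratio, so part of this tally was fixed in advance. In T-like cells the count of members at least 1.5-fold lower went from 2 to 1 with classes from each cell's own marker UMIs, at 2-fold, without the cell with most UMIs of the gene, and with cycling cells added. It went to 0 after thinning, where Klra6 with 10 and 9 UMIs and Klrg1 with 2 and 6 UMIs had too few to be read. The median went from 0.48 to 0.057 with subsets weighted alike. In NK-like cells the count at least 1.5-fold higher went from 3 to 5 with all genes used in clustering, 6 at up to 10% mitochondrial UMIs, 1 at 2-fold and 5 without the top cell. Klrc1 in T-like cells turned from 0.66 to -0.054 after thinning, and Cd160 in NK-like cells from 1.05 to -0.093 at cluster resolution 2. In NK-like cells Klrc1 came to -0.18 with classes from each cell's own marker UMIs, Klrk1 to -0.15 with Gzmc Ifng innate cells added and Klre1 to -0.21 after thinning. The cause was not tested. Across its alternatives in T-like cells the log2 ratio ran from 0.85 to 2.51 for Klra5, 1.36 to 2.12 for Klre1, 0.95 to 1.76 for Klrb1c and -1.22 to -0.60 for Klra6, all past 1.5-fold. For Klrb1c and Klra6 this leaves out thinning, after which they had too few UMIs to be read. Klrg1 ran from -1.78 to -0.18. Ncr1 in NK-like cells ran from 0.65 to 2.97, the highest after thinning with 1 and 64 UMIs. Alternatives without the Cd8a Itgae T cells, with NK-like and Gzmc Ifng innate cells together, and with cycling cells were chosen after seeing the data. The library labelled WT held 26 and 22 cells of the innate classes, which limits their values.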

Other observations

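Outside lymphocytes, Klrk1 and Klrd1 transcripts were found in DC-like and in monocyte and macrophage-like cells. DC-like cells held 9.62 and 22.2% of all Klrk1 UMIs of their libraries and 5.10 and 14.1% of Klrd1 UMIs, and monocyte and macrophage-like cells 6.30 and 22.2% and 0.850 and 7.31%. In monocyte and macrophage-like cells (51 and 1174 cells) Klrk1 was at 71.8 and 66.5 CPM and Klrc1 at 41.6 and 14.8 CPM, from 22 and 155 UMIs. Named T, NK and ILC classes with cycling lymphoid cells held 67.2 and 47.6% of Klrk1 UMIs, and 90.2 and 85.2% of Ncr1 UMIs.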
